A study of Homo sapiens with 4 samples.

Results

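The 8 genes described here encode transcription factors of the neural crest and melanocyte lineage: *SOX10*, *SOX9*, *SOX2*, *SOX4*, *PAX3*, *TFAP2A*, *MITF* and *FOXD3*. They were chosen by name for their known role in this lineage, with earlier results of these data known. They make up 8 of the 34241 gene identifiers listed in the single-cell libraries. All 8 were listed in every library. The cells were A375, an established melanoma line with the *BRAF* V600E mutation, cultured as 4 conditions. S cells were untreated, RV cells were resistant to the BRAF inhibitor vemurafenib, RVC cells to vemurafenib plus the MEK1/2 inhibitor cobimetinib, and RVT cells to vemurafenib plus the MEK1/2 inhibitor trametinib. The resistant cultures had been kept for 10 to 14 days on their drugs, at a dose below the IC50 determined before. The drugs were taken away 24 h before capture. About 10000 cells were loaded per condition, and each condition gave 1 library, so that condition, culture and library cannot be told apart.

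The neural crest is a migratory cell population of the embryo that gives rise to melanocytes, peripheral glia and parts of the facial skeleton. *SOX10* and *PAX3* activate *MITF*, the main regulator of pigment genes and of melanocyte survival, while *TFAP2A* and *FOXD3* act early in crest specification. *SOX9* directs cartilage formation, *SOX2* is a factor of stem and neural progenitor cells, and *SOX4* belongs to the SOXC group found in many progenitor cells. In melanoma, loss of *SOX10* and low or high *MITF* are known features of cells that tolerate inhibitors of the MAPK pathway.

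Filtering kept 6334, 4177, 7620 and 8443 cells of the S, RV, RVC and RVT libraries, with median depths of 8804, 11553, 3955 and 2869 unique molecular identifiers (UMIs, each counting 1 captured transcript). Levels are given as UMIs per 1000000 (CPM), summed over the filtered cells of a library, with exact 95% Poisson intervals that cover counting error only. Nothing in the labels says that a condition was cultured more than once. The tables of S and RV listed another gene set than those of RVC and RVT, and the log2 ratios of RVC and RVT over S also followed the GC content of the 3' transcript end (Spearman -0.37 and -0.38 across genes with at least 10 CPM, against -0.01 for RV over S). The median gene had a log2 ratio over S of 0.02, 0.23 and 0.46 for RV, RVC and RVT, so ratios are also given after TMM scaling or after centring within 20 bins of GC content. Any pair of libraries shared 36 to 102 cell barcodes after filtering. Of the 5 melanocyte markers, *TYR* had no UMI in any library, and the summed level of the list was only 0.291, 0.497, 5.02 and 2.05 CPM, again ordered S, RV, RVC, RVT as in every run of values below. The crest and glia markers, *SOX10* among them, summed to 190.2, 74.0, 0.852 and 20.6 CPM. The leukocyte markers *PTPRC* and *CD3E* and the epithelial markers *TP63* and *CDH1* were at 0 in all libraries. *CD68* made up nearly all of the leukocyte sum of 35.7, 71.1, 152.5 and 66.95 CPM, and the epithelial list summed to 6.31, 11.5, 0.152 and 0.669 CPM. The 5 fibroblast markers summed to 0.804, 0.879, 60.0 and 29.5 CPM, with *LUM* at 21.99 in RVC and 21.96 in RVT and *COL1A2* at 0 except for 8 UMIs in RVC. The endothelial list stayed at or below 1.31 CPM. The part of these genes in the results below was not tested.

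*SOX10* (ENSG00000100146, chr22:37970686-37987422, minus strand, GRCh38), a factor of crest, glial and melanocytic cells, was the only member without a UMI in one of the libraries. It stood at 86.7 CPM for S (84.3 to 89.1), 40.2 for RV (38.5 to 41.9), 0 in RVC and 19.4 for RVT (17.7 to 21.2). No interval overlapped another, and the order was S, RV, RVT and RVC. RVC cells held no *SOX10* UMI, neither among the 32882082 UMIs of filtered cells nor among the 38062115 UMIs of all 9266 barcodes, although the gene was listed in the table. Whether this absence goes with the treatment, the culture, the library or its processing cannot be told apart. A count of 0 allows up to 3 UMIs, or 0.0912 CPM, which places *SOX10* at least 950.4-fold lower in RVC than in S. Against S it was 2.16-fold lower in RV (2.05 to 2.27) and 4.47-fold lower in RVT (4.07 to 4.91). RVT exceeded RVC at least 213-fold. The last 500 bases of its transcript had 56.1% GC, above 82.5% of the genes with at least 10 CPM, and after centring on GC content the log2 ratio of RVT over S was -1.69 in place of -2.16, and *SOX10* in RVC was at least 695.5-fold lower than in S. *POLR2F* lies over *SOX10* on the opposite strand, and stood at 333.5, 294, 267 and 91.4 CPM, thus detected where *SOX10* had no UMI.

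Genes known to be driven by *SOX10* in glia and crest cells were lower along with it. Of 9 listed genes, 8 could be compared. In RV, 6 of them were past 2-fold lower than S and 1 higher, with a median log2 ratio of -1.30, where 3.23% of the 12395 genes reaching 1 CPM in either library were past 2-fold lower. In RVC all 8 were past 2-fold lower (median -6.18, with 22.8% of all genes lower), and in RVT 5 of 8 were (median -1.95, with 21.6% lower). *ERBB3*, the neuregulin co-receptor, measured 65.55, 14.05, 0.365 and 0.630 CPM. *S100B*, a glial calcium-binding protein, measured 33.2, 7.07, 0 and 0.315 CPM. *CDH19*, a cadherin of Schwann cell precursors, was at 8.23, 4.05, 0.0608 and 1.30 CPM. *MIA*, a protein secreted by melanoma cells, measured 245.3, 166.7, 1.855 and 103.8 CPM. RVT cells thus held *SOX10* and *MIA* transcripts while *ERBB3* and *S100B* were near 0. *L1CAM*, a neural adhesion molecule, was the gene that was higher in RV, with 20.6 CPM against 8.38 in S. This list was drawn up with earlier results of these data known.

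*SOX9* (ENSG00000125398, chr17:72121020-72126420, plus strand) followed the reverse order. Its level was 3.88 CPM for S (3.39 to 4.42), 8.73 for RV (7.95 to 9.57), 14.0 for RVC (12.7 to 15.3) and 13.6 for RVT (12.2 to 15.1). The intervals of S and RV lay apart from each other and below those of RVC and RVT, which overlapped. *SOX9* was 2.25-fold higher in RV than in S (1.91 to 2.65), 3.60-fold higher in RVC (3.06 to 4.23) and 3.51-fold higher in RVT (2.96 to 4.17). Its 3' end had 32.4% GC, lower than in all but 2.203% of the genes with at least 10 CPM. After centring on GC content the log2 ratio was 1.12, 1.11 and 0.60 for RV, RVC and RVT, in place of 1.17, 1.85 and 1.81. The RVT value was then within 2-fold.

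Of 13 listed cartilage genes driven by *SOX9*, 7 could be compared. Past 2-fold, 3 were lower and 1 higher than S in RV, where 3.23% of all genes were lower and 3.96% higher. In RVC 5 were lower and none higher (22.8% and 25% of all genes), and in RVT 3 were lower and 1 higher (21.6% and 36%). *COL9A3*, a cartilage collagen that was also expressed in these cells, measured 220.6, 135.2, 0.152 and 27.4 CPM, an order equal to that of *SOX10*. *COL9A2* measured 5.51, 1.74, 0.304 and 0.984 CPM, and the cartilage link protein gene *HAPLN1* 9.73, 20.8, 0.152 and 4.92. The SOXD partners of *SOX9* split: *SOX5* was at 17.7, 5.08, 23.2 and 20.4 CPM, and *SOX6* at 4.46, 1.36, 0.456 and 0.276.

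*SOX4* (ENSG00000124766, chr6:21592768-21598619, plus strand) separated both double-resistant cultures from S and RV. It was at 37.8 CPM for S (36.2 to 39.3), 31.2 for RV (29.7 to 32.7), 266 for RVC (261 to 272) and 275 for RVT (269 to 282). RVC was 7.06-fold (6.74 to 7.40) and RVT 7.29-fold (6.95 to 7.65) above S, whereas RV was 1.21-fold below (1.14 to 1.29). RVT over RVC was 1.03 (1.00 to 1.07). The 3' end of *SOX4* had 32.6% GC, lower than in all but 2.398% of those genes. The median log2 ratio in the bin of lowest GC was 0.73 for RVC and 1.21 for RVT. After centring *SOX4* was at 2.09 in RVC and 1.65 in RVT, in place of 2.82 and 2.87. Both values stayed past 2-fold. The log2 ratio of RVT over RVC was -0.52 after centring, in place of 0.05.

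*SOX2* (ENSG00000181449, chr3:181711924-181714436, plus strand) was low in all libraries. It measured 3.08 CPM for S (2.64 to 3.56), 1.49 for RV (1.18 to 1.86), 6.27 for RVC (5.44 to 7.18) and 2.204 for RVT (1.665 to 2.862), which rests on 180, 78, 206 and 56 UMIs. RVC was highest, and the intervals of S and RVT overlapped, as did those of RVT and RV. *SOX2* was 2.07-fold lower in RV than in S (1.57 to 2.73), 2.03-fold higher in RVC (1.66 to 2.50), and 2.84-fold lower in RVT than in RVC (2.11 to 3.89). Its 3' end had 28.4% GC, lower than in all but 0.268% of those genes, and the ratio to S moved with the centring: the log2 ratio was 0.29 in RVC in place of 1.03, and -1.70 in RVT in place of -0.48. The direction of each held, but the RVC value moved within 2-fold and the RVT value moved past it. The RVC call also ended under TMM scaling (0.81), median centring (0.79), totals without ribosomal protein and mitochondrial genes (0.83), at least 1000 genes per cell (0.994) and equal weight per cell (0.97), and the last of these ended the RV call too (-0.85). The overlapping gene *SOX2-OT* on the same strand was not among the listed genes, so no level could be given for it.

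**Figure D1:**
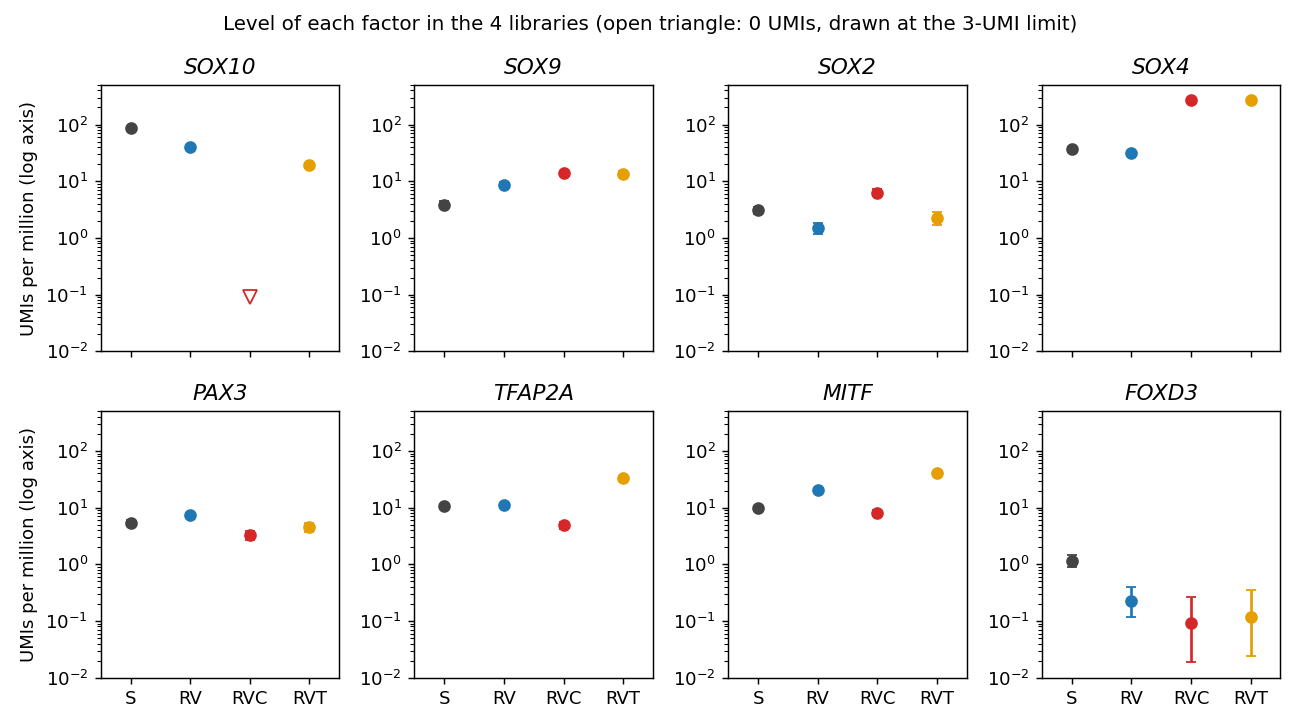
Level of the 8 factors in the 4 libraries, in CPM on a log axis, with exact 95% Poisson intervals that cover counting error only. SOX10 runs from 86.7 in S to 0 in RVC (open triangle, drawn at the 3-UMI limit of 0.0912), SOX4 from 37.8 in S to 266 in RVC and 275 in RVT, and FOXD3 lies below 1.2 throughout.

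*PAX3* (ENSG00000135903, chr2:222199888-222298996, minus strand), a paired-box factor upstream of *MITF*, was the member whose ratio to S stayed within 2-fold in RV, RVC and RVT. It stood at 5.39 CPM for S (4.81 to 6.02), 7.42 for RV (6.70 to 8.19), 3.25 for RVC (2.67 to 3.93) and 4.53 for RVT (3.74 to 5.43). The intervals of S and RVT overlapped, RV lay above all others, and RVC overlapped only RVT. The log2 ratios to S were 0.46, -0.73 and -0.25. After centring on GC content the log2 ratio was -1.13 in RVC, past 2-fold, and -0.96 in RVT.

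*TFAP2A* (ENSG00000137203, chr6:10393186-10419659, minus strand), an early crest factor that acts with *MITF* in melanocytes, stood at 10.6 CPM for S (9.80 to 11.5), 10.9 for RV (10.0 to 11.8), 4.87 for RVC (4.14 to 5.68) and 32.7 for RVT (30.5 to 35.0). S and RV overlapped, while RVC lay below and RVT above them. Relative to S it was 2.18-fold lower in RVC (1.83 to 2.61) and 3.08-fold higher in RVT (2.77 to 3.42), so that RVT exceeded RVC 6.72-fold (5.67 to 8.01). On GC centring the RVT over S log2 ratio became 0.95, just within 2-fold, and the RVT over RVC ratio was 2.48. Its relative *TFAP2C* was at 19.6, 16.45, 21.2 and 36.3 CPM. *TFAP2B*, another relative, had 314 UMIs in S (5.37 CPM), 1 UMI in RV and none in RVC or RVT.

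*MITF* (ENSG00000187098, chr3:69739435-69968337, plus strand) was at 9.73 CPM for S (8.95 to 10.6), 20.2 for RV (19.0 to 21.4), 7.94 for RVC (7.004 to 8.961) and 40.7 for RVT (38.3 to 43.3). The intervals of S and RVC overlapped, and RV and RVT lay above both and apart from each other. It was 2.07-fold higher in RV than in S (1.87 to 2.30) and 4.19-fold higher in RVT (3.78 to 4.65), while RVC was 1.23-fold lower (1.06 to 1.42). RVT exceeded RVC 5.13-fold (4.48 to 5.90). GC centring gave log2 ratios of 1.00, -0.86 and 1.15 for RV, RVC and RVT. *MITF* was thus measured in RVC at a level close to that in S, with 261 UMIs, although no *SOX10* UMI was found there.

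*MITF* has several start sites, which are used in different cell types, and UMI counts taken at the 3' end do not tell them apart. The 300 bases around 3 of them are printed here because *SOX10*, *PAX3* and CRE-binding factors are known to act at the melanocyte start, which lies last in the gene. The sequences are from RefSeq, build GRCh38.p14, plus strand, and capitals mark letters of the motifs ACAAAG or ACAATG (SOX), CATGTG or CACGTG (E-box), TGACGTCA (CRE), GCCNNNGGC (TFAP2) and TATAAA, searched on both strands, where no motif is contained in another.
MITF chr3:69739214-69739513: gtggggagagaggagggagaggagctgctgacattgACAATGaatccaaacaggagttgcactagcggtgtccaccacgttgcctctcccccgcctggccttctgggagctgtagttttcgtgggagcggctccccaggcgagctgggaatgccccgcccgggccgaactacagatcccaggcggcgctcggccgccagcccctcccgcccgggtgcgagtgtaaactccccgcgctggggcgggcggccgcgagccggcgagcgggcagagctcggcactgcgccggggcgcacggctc
MITF chr3:69763561-69763860: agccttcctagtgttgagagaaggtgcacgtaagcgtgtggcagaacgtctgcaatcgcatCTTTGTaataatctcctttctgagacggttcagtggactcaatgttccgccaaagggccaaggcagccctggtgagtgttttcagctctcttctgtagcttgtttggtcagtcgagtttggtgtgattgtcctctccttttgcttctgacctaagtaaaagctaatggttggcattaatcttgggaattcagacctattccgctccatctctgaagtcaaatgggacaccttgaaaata
MITF chr3:69936342-69936641: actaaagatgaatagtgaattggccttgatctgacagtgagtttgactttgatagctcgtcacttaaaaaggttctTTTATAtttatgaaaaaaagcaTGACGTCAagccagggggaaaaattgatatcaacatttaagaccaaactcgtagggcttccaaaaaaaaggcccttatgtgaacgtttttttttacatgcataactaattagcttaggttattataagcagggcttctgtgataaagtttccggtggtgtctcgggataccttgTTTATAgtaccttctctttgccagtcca
The last sequence held 1 CRE match, a motif found in 1.85% of 35116 promoters of this length, and 2 matches of TATAAA (11.5% of promoters). The first held 1 ACAATG (10.8%) and the second 1 ACAAAG (16.1%). None of the 3 held an E-box of either form. GC content was 70.3% in the first, 46.3% in the second and 37.0% in the last. Such matches describe letters and not binding.

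Pigmentation genes driven by *MITF* showed no common direction. Of 16 listed genes, 6 could be compared between RV and S, of which 1 was past 2-fold lower and none higher (3.23% and 3.96% of all genes). In RVC 2 of 7 were lower and 4 higher (22.8% and 25% of all genes), and in RVT 3 of 7 were lower and 2 higher (21.6% and 36% of all genes). *OCA2*, a melanosomal transport protein, had 5.76, 0.592, 0.791 and 0 CPM. *RAB38*, which carries cargo to melanosomes, had 16.98, 15.3, 1.703 and 7.95 CPM, and *RAB27A*, which tethers melanosomes, 5.92, 4.76, 13.6 and 11.3. *GPNMB*, a melanosomal and lysosomal glycoprotein, had 6.77, 7.80, 38.0 and 40.3 CPM. The MITF relative *TFE3* was at 12.5, 13.4, 14.4 and 27.6 CPM. Beside *MITF* at 40.7 CPM in RVT there were 0 UMIs of *TYR* and 0.275 CPM of *PMEL*. *TYRP1*, a melanosomal enzyme and the highest of the melanocyte markers in RVC and RVT, had 4, 1, 161 and 44 UMIs, or 0.0684, 0.0191, 4.896 and 1.73 CPM, so that it was 71.6-fold higher in RVC and 25.3-fold higher in RVT than in S. *TYR*, *PMEL* and *TYRP1* were named after their values were seen.

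*FOXD3* (ENSG00000187140, chr1:63323041-63325126, plus strand), a forkhead factor that keeps crest cells undifferentiated and holds back *MITF*, had the fewest UMIs. It had 67, 12, 3 and 3 UMIs, or 1.15 CPM (0.888 to 1.46), 0.229 (0.118 to 0.401), 0.0912 (0.0188 to 0.267) and 0.118 (0.0244 to 0.345). The interval of S lay above all others, and those of RV, RVC and RVT overlapped. *FOXD3* was 5.00-fold lower in RV than in S (2.68 to 10.2). The 3 UMIs of RVC and RVT gave ratios to S of 12.6-fold lower (4.12 to 62.4) and 9.70-fold lower (3.18 to 48.2). After centring on GC content the log2 ratio was -2.35, -4.18 and -4.16 for RV, RVC and RVT, in place of -2.32, -3.65 and -3.28. With doublets kept it was -2.21, -3.34 and -2.65. Its antisense neighbour *FOXD3-AS1*, which overlaps it on the other strand, kept the same order of S over RV over both double-resistant cultures, with 7.94, 4.204, 0.608 and 0.512 CPM.

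The promoter of *FOXD3* (RefSeq, GRCh38.p14, plus strand) is shown because *FOXD3* and *FOXD3-AS1* were both lowest in RVC and RVT, with capitals as above.
FOXD3 chr1:63322317-63322616: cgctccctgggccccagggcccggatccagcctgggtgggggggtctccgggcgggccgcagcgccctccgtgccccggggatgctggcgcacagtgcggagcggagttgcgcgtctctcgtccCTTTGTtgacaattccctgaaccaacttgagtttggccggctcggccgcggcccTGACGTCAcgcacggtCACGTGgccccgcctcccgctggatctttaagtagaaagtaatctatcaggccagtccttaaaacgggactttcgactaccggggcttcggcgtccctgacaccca
It held 1 ACAAAG match, 1 CRE match and 1 CACGTG, which occurs in 7.26% of all promoters. Promoter sequences were found for 6 of the 8 members, and *SOX10* and *SOX9* were without an entry.

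Against S, 3 of the 8 factors were past 2-fold lower in RV (*SOX10*, *SOX2*, *FOXD3*), where 3.23% of 12395 genes were, and 2 were higher (*SOX9*, *MITF*), where 3.96% of genes were. In RVC 3 were past 2-fold lower (*SOX10*, *TFAP2A*, *FOXD3*) against 22.8% of 12973 genes, and 3 higher (*SOX9*, *SOX2*, *SOX4*) against 25% of genes. In RVT 2 were lower (*SOX10*, *FOXD3*) against 21.6% of 13354 genes, and 4 higher (*SOX9*, *SOX4*, *TFAP2A*, *MITF*) against 36% of genes. Between both double-resistant cultures, 1 of 7 factors that could be compared was lower in RVT than in RVC (*SOX2*), against 12.8% of 13204 genes, and 3 were higher (*SOX10*, *TFAP2A*, *MITF*), against 23.3%. The share of factors past 2-fold in either direction was thus 5 of 8 in RV, where 7.19% of genes were, but in RVC and RVT it was 6 of 8, where 47.8% and 57.6% of genes were. The median log2 ratio of the factors was -0.12 in RV, -0.51 in RVC and 0.69 for RVT, beside 0.02, 0.23 and 0.46 over all genes. After GC centring RVC had 4 lower and 2 higher, beside 23.3% and 18.4% of all genes, and RVT had 3 lower and 2 higher, beside 25.2% and 23%. These comparisons share the S library, and the factors were chosen with earlier results of these data known.

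*SOX10* was among the lowest 2.73% of all ratios in RV, the lowest 0.0231% in RVC and the lowest 9.44% in RVT, and after GC centring the lowest 2.73%, 0.0309% and 14.1%. *SOX4* exceeded 96.3% of genes in RVC and 94.0% in RVT, but after GC centring 94.04% and 87.85%. *SOX9* exceeded 97.1%, 91.3% and 82.7% of genes for RV, RVC and RVT, and after GC centring 96.9%, 83.7% and 67.0%. In RVT over RVC, *TFAP2A* exceeded 96.25% and *MITF* 94.95% of genes.

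**Figure D2:**
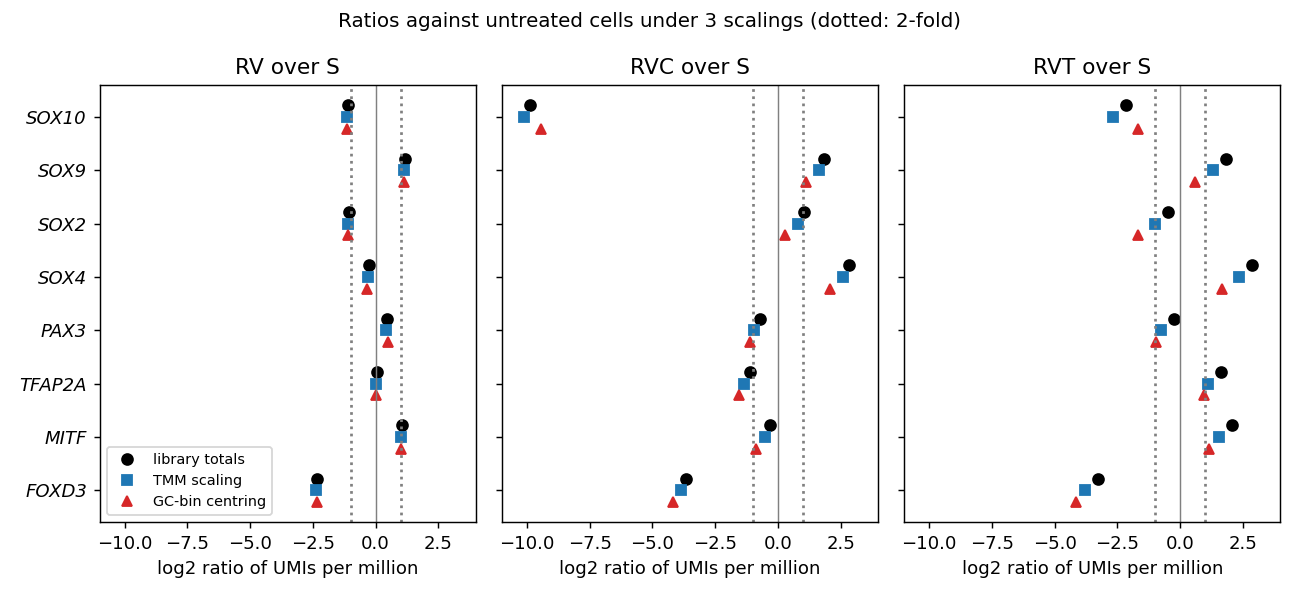
Log2 ratios of the 8 factors over S in RV, RVC and RVT, from library totals (circles), after TMM scaling (squares) and after centring within bins of GC content (triangles), with dotted lines at 2-fold. The 3 scalings lie together in RV, while in RVT they spread by over 1 log2 unit for SOX9 (1.81 to 0.60), SOX4 (2.87 to 1.65) and SOX2 (-0.48 to -1.70). The SOX10 value in RVC is a limit from 0 UMIs.

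Single cells showed how widely each factor was detected. A *SOX10* UMI was found in 49.3% (48.05 to 50.5) of S, 33.3% (31.9 to 34.8) of RV and 5.58% (5.10 to 6.09) of RVT cells, and in none of 7620 RVC cells, which allows a share of cells with a UMI of up to 0.0394% at this depth. Because depth differed, each cell was also thinned to 1500 UMIs, which left out 403 RVC and 848 RVT cells and none of S or RV. The shares were then 12.6%, 6.58%, 0 and 2.98%. *SOX4* was detected in 25.02%, 28.1%, 54.0% and 45.4% of cells, and after thinning in 5.40%, 4.50%, 30.1% and 29.9%. *MITF* shares were 8.07%, 19.0%, 3.20% and 11.2%, and 1.56%, 2.54%, 1.12% and 5.99% after thinning. At equal depth RVT cells therefore had the highest *MITF* share, whereas at full depth RV cells had. The highest share also moved from RV to RVT for *TFAP2A* (8.999%, 12.3%, 2.06% and 9.13%, then 1.61%, 1.65%, 0.693% and 5.02%) and for *SOX9* (3.17%, 9.29%, 5.47% and 3.93%, then 0.537%, 1.56%, 1.98% and 2.08%, where the intervals of RV, RVC and RVT overlapped). *FOXD3* was found in 0.995% of S cells, and in 12 RV, 3 RVC and 3 RVT cells. No other cell type was at hand to give a background share.

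**Figure D3:**
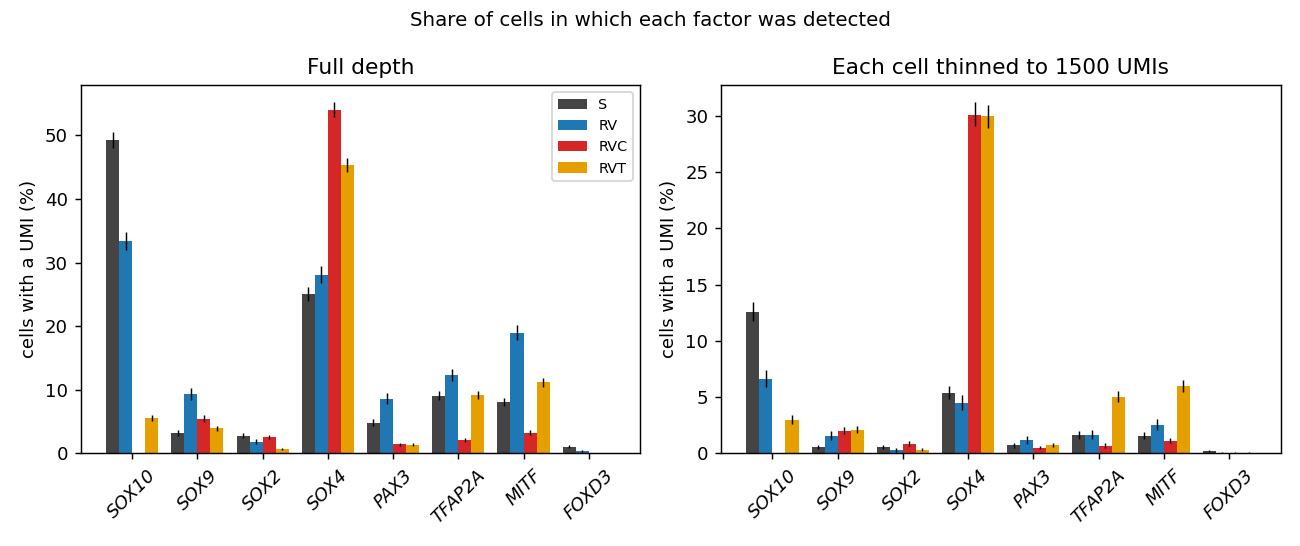
Share of cells with a UMI of each factor in S, RV, RVC and RVT, at full depth and after thinning each cell to 1500 UMIs, with exact 95% binomial intervals that cover counting error only. SOX10 runs from 49.3% in S to 0 in RVC and SOX4 reaches 54.0% at full depth, and after thinning the highest MITF share is in RVT (5.99%).

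Whether the UMIs of a factor sat in few cells was read from the number of positive cells beside the number that its CPM and the depth of each cell give. The median gene between 1 and 1000 CPM had a ratio of 0.989, 0.985, 0.994 and 0.997. The ratio is held near 1 where a gene has few UMIs per cell, and the genes behind these medians were not matched on level, so it does not rank members of different level. *SOX4* had 0.866, 0.892, 0.854 and 0.842, among the lowest 2.001%, 3.199%, 0.764% and 0.834% of genes. *SOX10* had 0.922 in S and 0.869 in RV, and 0.988 in RVT. *MITF* in RV had 0.866 and up to 12 UMIs in a single cell, while *SOX9* had 0.903 in S and 0.904 in RV. *PAX3* stayed between 0.974 and 1.01 in all libraries.

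Of S cells, 27.9% held no UMI of any of the 8 factors, 46.4% held 1, 20.8% held 2, and 4.91% held 3 or more. The cells without any made up 28.6% of RV, 39.8% of RVC and 40.2% of RVT. After thinning, 78.4% of S, 82.8% of RV, 66.5% of RVC and 58.9% of RVT cells lacked all 8. The double-resistant libraries then had the smaller shares, while S stayed below RV. *SOX4* was detected in 5.40%, 4.50%, 30.1% and 29.9% of thinned cells, and *SOX10* in 12.6%, 6.58%, 0 and 2.98%. The shares without *SOX4* were not computed.

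*SOX10* and *SOX9* were found together in fewer S cells than their separate frequencies give. Of 3122 S cells with a *SOX10* UMI, 57 also had *SOX9* (1.83%, 1.39 to 2.36), and of 3212 cells without, 4.48% had (3.79 to 5.26). Within depth deciles, 102.2 cells were expected to hold both, so that the ratio of observed to expected was 0.558. This value was among the lowest 0.361% of 12735 genes paired with *SOX10* (median 1.003). The genes ranked here and below had a minimum of expected cells and were not matched on level. Such ranks therefore do not compare genes of different level. In RV 106 cells held both, where 138 were expected (0.768), and the shares of *SOX9* were 7.61% and 10.1%. In RVT 21 cells held both, where 21.6 were expected (0.974). Cells of 1 library are not replicates, and no p-value was made from them.

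*MITF* behaved toward *SOX10* much like *SOX9* did in S, with 169 cells holding both where 261 were expected (0.648, among the lowest 0.966% of genes). The ratio was 0.899 in RV and 1.35 in RVT, where 82 cells held both and 60.55 were expected. *SOX9* and *MITF* in turn met more often than expected in S, in 42 cells against 21.8 (1.92), and in RVC, in 34 cells against 17.1 (1.99), while the ratio was 0.959 in RV and 1.04 in RVT. After thinning to 1500 UMIs the RVT ratio was 1.80, with 17 cells against 9.465 expected, and the other libraries had at most 3 such cells. Of the 63 S cells with *FOXD3*, 44 also held *SOX10*, where 31.5 were expected (1.395), but the ratio was 1.13 among cells without a UMI of the hair keratin *KRT81* (27 against 23.9) and 1.54 among those with one (17 against 11.05), and after thinning no cell held both, where 1.386 were expected. *SOX2* met *SOX4* in 69 S cells against 43.5 expected (1.59) and in 143 RVC cells against 109.3 (1.31), with ratios of 1.18 in RV (23 against 19.5) and 0.976 in RVT (25 against 25.6). *SOX10* and *SOX2* met in 35 RV cells against 24.5 expected (1.43, above 99.5% of the genes ranked with *SOX10*). The *SOX2* share was 2.51% (1.76 to 3.48) in RV cells with *SOX10* and 1.40% (0.998 to 1.91) in those without. These intervals overlapped. After thinning, 2 RV cells held both, where 0.79 were expected. In S *SOX10* and *SOX2* met in 94 cells against 85.9 (1.09), and in RVT in 1 cell against 3.53. *PAX3* and *TFAP2A* differed little from expectation with *SOX10* in S (0.921 and 0.986).

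**Figure D4:**
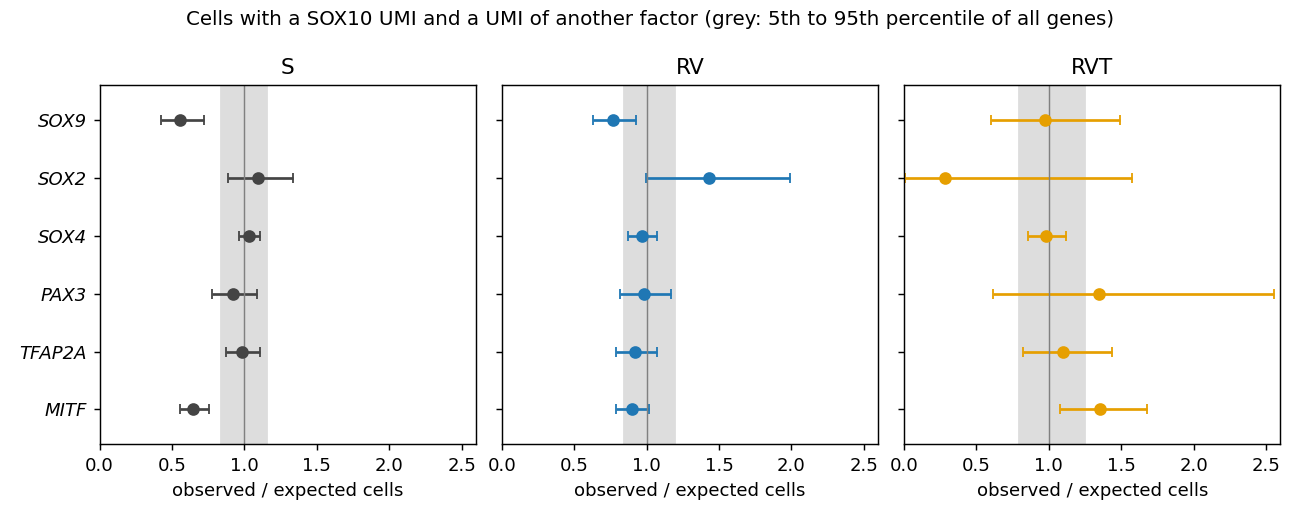
Cells in which SOX10 and another factor were both detected, as the ratio of the observed number to that expected from their frequencies within depth deciles, in S, RV and RVT, with Poisson intervals of the observed number. The grey band spans the 5th to 95th percentile of the genes that reached a minimum of cells expected to be shared with SOX10. These genes were not matched on level. SOX9 (0.558) and MITF (0.648) lie below the band in S. In RV SOX9 (0.768) lies below it and SOX2 (1.43, from 35 cells) above it. In RVT MITF (1.35) lies above it. PAX3 (1.35, from 9 cells) and SOX2 (0.283, from 1 cell) in RVT had too few expected cells to be among the genes of the band.

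Cells with a *SOX10* UMI differed in genes tied to *SOX10*. In S they had 82.2 CPM of *ERBB3* against 48.6 in other cells (1.69-fold, 1.58 to 1.80), 42.2 CPM of *S100B* against 24.0 (1.76-fold), and 80.7 CPM of *AXL*, a receptor kinase of the invasive state, against 107.8 (0.748-fold). *NGFR*, a crest receptor, was at 0.509 against 1.69 CPM. In RV the ratio was 2.13 for *ERBB3* (1.84 to 2.47) and 2.70 for *S100B* (2.18 to 3.35). In RVT, where *ERBB3* had 16 UMIs and *S100B* 8, 1 of these 24 UMIs lay in a cell with *SOX10*, too few to compare with the 5.58% of cells that held *SOX10*. *COL9A3* was 1.38-fold higher with *SOX10* in S and 1.53-fold in RV, and in RVT stood at 25.6 against 27.5 CPM. *MITF*-positive S cells had less *ERBB3* (38.1 against 68.5 CPM), less *S100B* (17.8 against 34.8) and more *AXL* (129.3 against 90.4) than the rest. They were also deeper, with a median of 10278 against 8678 UMIs, and S cells above the median depth had 0.606-fold the *ERBB3*, 0.5325-fold the *S100B* and 1.083-fold the *AXL* of shallower cells. The part of depth in this split was not tested.

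Some of the factors also varied with *KRT81*, which was detected in 3744 of 6334 S cells. In S cells with a *KRT81* UMI, *SOX9* was at 5.87 CPM against 0.711 in cells without, an 8.245-fold difference (4.96 to 14.7) that rests on 211 and 16 UMIs. *MITF* was 2.83-fold higher in these cells (2.28 to 3.54), while *SOX10* (0.631-fold, 0.597 to 0.667) and *FOXD3* (0.751 against 1.78 CPM) were lower. The gap in *FOXD3* lay in the deeper cells: its ratio was 1.085 (15 and 12 UMIs) among S cells up to the median depth and 0.218 among deeper ones. *SOX9* exceeded 99.25% and *MITF* 97.6% of 12019 genes in this ratio, which were not matched on level. Detection of *KRT81* depends on depth, and the ratio of *SOX9* was 5.02 among S cells up to the median depth and 11.6 among deeper ones, a split added after the values were seen. The same split gave 2.01 and 3.18 for *MITF*, and 0.777 and 0.564 for *SOX10*. The shallower value of *MITF* and both values of *SOX10* lay outside the intervals given above. In RV, with 2669 *KRT81*-positive cells of 4177, *SOX9* was at 9.21 against 7.75 CPM (1.19-fold, 0.968 to 1.47), with a ratio of 1.53 (1.04 to 2.29) in shallower and 0.990 (0.775 to 1.27) in deeper cells. *MITF* was 1.29-fold there, within the 5th to 95th percentile of the genes ranked, and *SOX10* 0.711-fold. *SOX2* was 0.373-fold (0.231 to 0.597, on 34 and 44 UMIs), among the lowest 0.0662% of 12082 genes, again not matched on level. Its ratio was 0.371 (0.194 to 0.686) in shallower and 0.5865 (0.259 to 1.385) in deeper RV cells. Among *KRT81*-positive S cells alone, *SOX10* and *SOX9* were together in 53 cells where 80.7 were expected (0.657), and *SOX10* and *MITF* in 113 where 178.7 were (0.632). In *KRT81*-negative S cells *SOX10* and *SOX9* were together in 4 cells where 8.205 were expected (0.4875), while *SOX10* and *MITF* were together in 56 where 60.98 were (0.918).

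**Figure D5:**
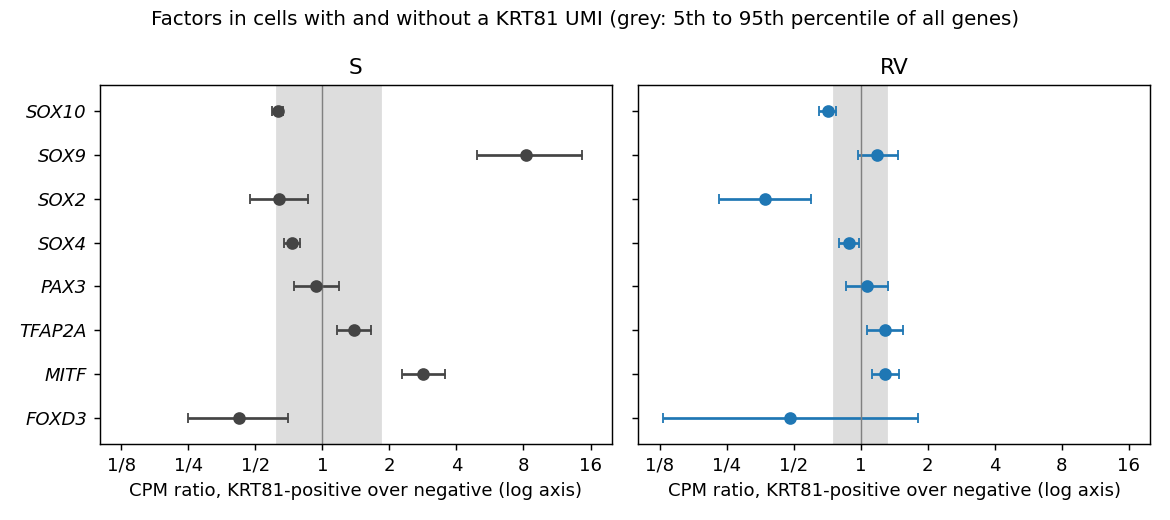
Ratio of the level of each factor in cells with a KRT81 UMI over cells without, in S and RV, on a log axis with exact 95% intervals for counting error. The grey band spans the 5th to 95th percentile of genes with at least 1 CPM in the library, a level that FOXD3 in RV did not reach. SOX9 (8.245) and MITF (2.83) lie above the band in S, and SOX9 is at 1.19 in RV.

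Splits by *ERBB3* and *AXL* ran in opposite directions for *SOX10*, *SOX9*, *SOX2* and *MITF* in S. In S cells with an *ERBB3* UMI, *SOX10* was 1.59-fold higher (1.502 to 1.678) and *FOXD3* 2.83-fold higher (1.68 to 4.88), with *SOX9* at 0.470-fold and *MITF* at 0.608-fold. In the 560 RV cells with an *ERBB3* UMI, *SOX10* reached 77.5 CPM against 34.6 in the rest (2.24-fold), and 7 of the 12 *FOXD3* UMIs of RV were found in them. *AXL*-positive S cells had more *MITF* (1.61-fold) and *SOX9* (1.84-fold) and less *SOX2* (0.479-fold) and *SOX10* (0.825-fold). *AXL*-positive S cells were deeper, with a median of 9360 against 8338 UMIs, and cells above the median depth differed from shallower ones by similar ratios, of 1.66 for *MITF*, 1.605 for *SOX9*, 0.4935 for *SOX2* and 0.773 for *SOX10*. *AXL*-positive RV cells had 1.63-fold the *MITF* and 0.334-fold the *SOX2* of other RV cells, with median depths of 12232 and 9981 UMIs and ratios of 1.31 and 0.302 by depth alone. The *ERBB3* groups of S were alike in depth, at 8713 and 8883 UMIs. In RVT the ratios of *SOX10*, *SOX9*, *TFAP2A* and *MITF* between *AXL*-positive and other cells lay between 1.005 and 1.044. S cells with a UMI of the noncoding RNA *LINC01419* (4360 of 6334) had 93.5 CPM of *SOX10* against 69.8, and 3.10 CPM of *SOX9* against 5.82.

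Cells with UMIs of at least 3 of 10 mitotic genes were compared with the others. *SOX2* was lower in mitotic S cells, at 1.60 against 3.93 CPM (0.407-fold, 0.271 to 0.594), and in mitotic RV cells, at 0.553 against 2.50 (0.222-fold, 0.117 to 0.394). *MITF* was 1.42-fold higher in mitotic S cells and 1.61-fold in mitotic RV cells. *SOX4* differed in RVT, where 409 mitotic cells had 84.1 CPM and the 8034 others 289 (0.291-fold, 0.245 to 0.343), whereas in S the ratio was 1.07. *SOX9* was 1.92-fold higher in mitotic RVT cells (1.36 to 2.65). Mitotic cells were deeper, with a median of 10319 UMIs against 8218 in S and 4126 against 2826.5 in RVT, and depth by itself went with these genes: in S cells above the median depth *SOX2* was 0.4935-fold and *MITF* 1.66-fold of the level in shallower cells. The part of depth in these splits was not tested.

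The genes most like each member over the 4 libraries were found by the distance between centred log2(CPM + 0.5) profiles, among 8219 genes that reached 10 CPM. *MIA* was nearest to *SOX10* (distance 0.68), followed by *COL9A3* (1.14) and *CD96* (1.67), and no gene came within 0.5 of it. *SOX4* was nearly matched by *RHOBTB3*, with 27.6, 23.7, 193.3 and 202.6 CPM (distance 0.06), then by *RBM47* and *COL5A1*. *SOX9* was closest to *DEGS1*, *AHNAK2* and *ARSJ*, *TFAP2A* to *GPCPD1*, *GOPC* and *BTBD3*, and *MITF* to *CYFIP2*, *RALGPS2* and *PRICKLE1*. Between 9 and 25 genes lay within 0.5 of *SOX9*, *SOX4*, *TFAP2A* and *MITF*. *SOX2*, *PAX3* and *FOXD3* did not reach 10 CPM.

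Other factors of the crest were read beside the members, with the counts of each list to be set against all genes, of which 3.23% were lower and 3.96% higher past 2-fold in RV, 22.8% and 25% in RVC, and 21.6% and 36% in RVT. Of 14 listed, 11 could be compared in RV, with 4 past 2-fold lower than S and 1 higher, and 13 in RVC and RVT, with 4 lower and 5 higher and with 3 lower and 4 higher. *ID3*, an inhibitor of basic helix-loop-helix factors, was at 250.9, 64.8, 18.9 and 394.9 CPM. *LMO4*, a LIM-domain cofactor, measured 151.4, 63.6, 34.1 and 77.7 CPM. *PRRX1*, a mesenchymal homeobox factor, was lower in every resistant culture, at 21.8, 4.11, 2.52 and 1.496 CPM. *NGFR* was at 1.09, 11.2, 0.487 and 0.0394 CPM. Of 26 relatives of the members, 10 could be compared in RV, where 3 were past 2-fold lower and none higher, and 11 in RVC and RVT, where 2 were lower and 2 higher in each. *FOXD1* stood at 99.6 CPM in RVC, against 5.15, 7.43 and 8.305 in S, RV and RVT. *CASC15*, a noncoding gene beside *SOX4*, was at 1.28, 1.09, 3.07 and 14.8 CPM, and so differed between RVC and RVT past 2-fold, where *SOX4* did not. Of the 3 neighbouring genes that could be compared, none passed 2-fold in RV, 1 was lower and 1 higher in RVC, and 2 were lower and 1 higher in RVT. Of 8 genes of the de-differentiated state, 5 were past 2-fold higher in RV and none lower, 4 higher and 1 lower in RVC, and 3 higher and 3 lower in RVT. *AXL* was at 94.15, 170.1, 78.25 and 98.4 CPM, *FOSL1* at 164.2, 342, 117.1 and 15.1, and *WNT5A* at 8.996, 5.03, 90.4 and 47.3.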

How the data were processed

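Single-cell RNA sequencing of A375 cells was analysed in 4 conditions with 1 library each (10x Genomics Chromium v2). The authors deposited raw UMI counts, whole numbers for each gene and barcode. The submitters' processing notes name bcl2fastq 2.20.0.422, Cell Ranger and GRCh38, and the annotation and the Cell Ranger version are not given in the sources used here. Of 34241 identifiers, 703 were listed for S and RV only and 547 for RVC and RVT only. Identifiers were named from GENCODE.

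Cells had at least 500 genes and at most 20% mitochondrial UMIs, and the highest scrublet scores (scanpy 1.11.5) were removed at 0.8% per 1000 barcodes, which took out 359, 150, 687 and 870 barcodes of S, RV, RVC and RVT. The tool's own threshold marked 5, 2, 1 and 1. UMIs were summed to 58470570, 52329047, 32882082 and 25406351, so that 3 UMIs, the limit of a count of 0, were 0.0513, 0.0573, 0.0912 and 0.118 CPM. Limits and ratios for a count of 0 use these 3 UMIs. Other levels have exact Poisson, shares exact Clopper-Pearson and ratios exact conditional binomial intervals at 95%. A ratio was counted where either library reached 1 CPM. With 1 library per condition no test was made. TMM factors (edgeR 4.0.16, R 4.3.3) were 0.875, 0.899, 1.01 and 1.25. GC content was that of the last 500 transcript bases. Python 3.11.15, numpy 2.4.6, pandas 2.3.3, scipy 1.17.1 and matplotlib 3.10.9 were used. Ratio and co-detection code was tested on simulated counts.

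All 8 members, the 3 nearest genes of members that reached 10 CPM and, from each list, the 3 genes with the highest level and those past 2-fold in all resistant libraries were named. *L1CAM*, *PMEL*, *TYR*, *TYRP1* and the markers of other cell types (*PTPRC*, *CD3E*, *CD68*, *TP63*, *CDH1*, *LUM* and *COL1A2*) were named outside this rule after their values were seen. The members and lists were chosen with earlier results of these data known. Alternatives were other scalings, cell filters, doublet handling, equal weight per cell and other filters on low levels. The splits of *KRT81*-positive cells by depth and by *SOX10* were added after seeing the data.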

Additional observations from a re-analysis of the deposited data

How the results depend on the processing

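No paired analysis was possible because each condition had 1 library. Of 80 recomputed counts of factors past 2-fold, 74 stayed within 1.5 times the reported count. With at least 10 CPM required, 1 factor in place of 3 was lower and 1 in place of 2 higher in RV over S, 1 in place of 2 was lower in RVT over S, and 0 in place of 1 was lower in RVT over RVC, since fewer genes were compared. Of all genes under this filter, 1.65% were lower and 2.64% higher in RV over S, 23.2% lower in RVT over S and 12.1% lower in RVT over RVC. With totals that left out ribosomal protein and mitochondrial genes, 1 in place of 2 was higher in RV over S (4.21% of all genes), as *MITF* moved to a log2 ratio of 0.99. After GC-bin centring 2 in place of 4 were higher in RVT over S, where the share of all genes was 23% in place of 36%. Of all genes past 2-fold in RVT over S, 21.6% of those compared were lower and 36% higher, and after TMM scaling 30.3% were lower and 22.4% higher. In RVT over RVC the same scaling turned 12.8% lower and 23.3% higher into 18.2% and 15.0%, and in RVC over S 22.8% and 25% into 26.8% and 18.9%. Of 248 recomputed log2 ratios of single factors, 196 stayed within the counting interval of the reported value, 52 moved and 0 of those past 2-fold changed sign. In RVT over RVC, TMM scaling turned *SOX4* from 0.05 to -0.26, and GC-bin centring turned it to -0.52. The ratio of observed to expected cells with *SOX10* and *SOX9* was 0.467 in RV when thinned to 1500 UMIs, in place of 0.768, but rested on 2 cells. In S, keeping the doublets gave 0.648 in place of 0.558. Ratios of *SOX9*, *MITF* and *SOX10* between the *KRT81* groups of S were recomputed in shallower and deeper cells. Of these 6 ratios, 3 stayed within the counting interval and 3 moved. The cause of these shifts was not tested. Low levels limit *FOXD3* in the double-resistant libraries, where 3 UMIs each were counted, and *SOX2* in RVT with 56.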
